A study of Mus musculus with 20 samples.

Results

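The bulge of the mouse hair follicle was followed here through 5 genes whose products sit on the cell surface or are secreted: *Cd34*, *Cd200*, *Il31ra*, *Angptl7* and *Fgf18*. They were taken by name from a table of 53380 genes and 20 libraries, and each of the 5 names matched 1 gene. The genes were chosen by their high normalized counts in the hair follicle stem cells of this same table, so their levels there are given as a description with no test. Values are normalized counts, that is reads on a gene divided by 1 size factor per library.

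The study asked how epidermal keratinocytes with high surface Thy1 differ from their neighbours, and it sorted cells of dorsal skin by surface proteins. Hair follicle stem cells (HFSCs, 4 libraries) were positive for integrin-α6 and CD34 and negative for Sca1. Keratinocytes of the interfollicular epidermis, positive for integrin-α6 and Sca1, were split into Thy1hi (4 libraries) and Thy1- cells (4 libraries). Dendritic epidermal T cells (DETCs, 5 libraries) were positive for Thy1, low for Sca1 and negative for integrin-α6, and a further set of Thy1hi cells was sorted for YFP (Thy1hi YFP, 3 libraries). The labels give every sample the genotype Thy1.2CreERT2-Rosa26-EYFP, in which an inducible Cre driven by Thy1 turns on YFP, and no treatment. The study's text instead gives wild-type mice for the sort of HFSCs, DETCs, Thy1hi and Thy1- cells, and describes YFP-labelled Thy1hi cells in mice of this genotype after induction of Cre with tamoxifen, so by that text genotype, induction and the YFP sort cannot be told apart. The label ages rise by a week from sample to sample, from 8 weeks in HFSC replicate 1 to 27 weeks in Thy1- replicate 4, so age by the labels and population cannot be told apart, while the text gives 8-week-old mice. The YFP cells are labelled Sca1-negative, although their sample titles place them with the Sca1-positive cells. How many mice entered a library is not clear from the sources used here, so p-values measure the spread between libraries, which may be technical. Because CD34 protein was part of the HFSC gate, *Cd34* checks the sort and is not a finding there.

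The bulge is the lower permanent part of the follicle, where slowly dividing stem cells rest between hair cycles. CD34 is a sialomucin of the cell surface and the standard marker used to sort mouse bulge cells, and CD200 is a surface glycoprotein that restrains myeloid cells through the receptor CD200R1. IL31RA pairs with OSMR to receive interleukin-31, a T cell cytokine known for causing itch. ANGPTL7 is a secreted protein of the angiopoietin-like family, and FGF18 is a secreted growth factor, made by bulge cells, that is known to hold the follicle in its resting phase and that signals through FGF receptors.

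All 5 genes had an entry among the RefSeq promoters of GRCm38.p6. The 250 bases before each start site are shown because these genes stood high together in HFSCs while their promoters differ in base composition. Each sequence runs 5′ to 3′ on the strand of its gene, and capitals mark CG pairs.
Cd34, chr1:194938571-194938820 (+): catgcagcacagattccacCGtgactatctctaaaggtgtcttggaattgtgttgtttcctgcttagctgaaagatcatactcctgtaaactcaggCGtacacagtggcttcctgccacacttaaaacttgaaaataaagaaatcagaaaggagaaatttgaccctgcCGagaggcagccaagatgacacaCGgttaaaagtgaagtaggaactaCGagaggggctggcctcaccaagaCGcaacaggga
Cd200, chr16:45409054-45409303 (-): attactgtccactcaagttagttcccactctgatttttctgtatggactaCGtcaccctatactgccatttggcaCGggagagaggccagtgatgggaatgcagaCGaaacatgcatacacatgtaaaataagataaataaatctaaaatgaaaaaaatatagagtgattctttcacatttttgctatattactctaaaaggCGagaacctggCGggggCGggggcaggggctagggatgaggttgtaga
Il31ra, chr13:112580663-112580912 (-): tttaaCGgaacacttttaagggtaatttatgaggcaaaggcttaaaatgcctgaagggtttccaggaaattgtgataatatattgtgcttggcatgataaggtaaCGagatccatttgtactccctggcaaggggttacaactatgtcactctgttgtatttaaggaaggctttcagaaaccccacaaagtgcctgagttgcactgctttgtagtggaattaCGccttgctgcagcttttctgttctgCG
Angptl7, chr4:148500463-148500712 (-): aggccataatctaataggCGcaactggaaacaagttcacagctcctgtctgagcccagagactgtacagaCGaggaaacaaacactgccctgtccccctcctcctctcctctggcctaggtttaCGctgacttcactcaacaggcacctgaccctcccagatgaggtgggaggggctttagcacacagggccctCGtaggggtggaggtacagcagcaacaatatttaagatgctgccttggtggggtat
Fgf18, chr11:33147401-33147650 (-): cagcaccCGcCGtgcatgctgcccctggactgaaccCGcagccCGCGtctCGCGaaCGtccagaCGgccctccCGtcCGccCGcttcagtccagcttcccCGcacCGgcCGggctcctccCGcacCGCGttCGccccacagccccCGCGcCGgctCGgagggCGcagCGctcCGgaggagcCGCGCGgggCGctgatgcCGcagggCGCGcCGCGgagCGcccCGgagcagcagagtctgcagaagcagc

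The promoter of *Fgf18* held 37 CG pairs and 77.2% G and C, against a median of 6 pairs and 52.0% over 27025 promoters of the same length. Of all promoters, 97.9% had fewer CG pairs. The other 4 held 4 to 6 CG pairs and 42.0% to 54.4% G and C, so the 5 genes do not share 1 promoter composition. A set of 6 short motifs of factor families known in the bulge were searched on both strands: TAATTA (homeodomain), ACAATG and ACAAAG (SOX), TCAAAG (TCF/LEF), GTAAACA (FOX) and TGTGGT (RUNX). The only matches among the 5 were ACAAAG in *Il31ra*, at 66 bases before the start and, on the other strand, at 44 bases before it. ACAAAG occurs in 16.5% of all promoters, and the others in 4.90%, 11.0%, 14.05%, 3.09% and 14.2%, in the order given. The absence of a match says only that these letters are not in this window. The *Il31ra* window lies inside the gene in GENCODE, where a longer transcript starts 13698 bases upstream.

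Total reads on genes ranged from 7781256 to 12982393 per library, and *Rn45s*, a ribosomal RNA gene, took 13.1% to 41.5% of them. In 1 library, Thy1- replicate 4, the values of 3212 genes stood in the wrong rows and were put back. None of the 5 genes was among them. Bulge markers other than *Cd34* (*Lgr5*, *Lhx2*, *Sox9*, *Tbx1*, *Tcf7l1*, *Nfatc1*) summed to 7333 ± 1896 in HFSCs (SD, n = 4). The sum was 19.7% of that mean in Thy1hi, 20.8% in Thy1hi YFP and 38.9% in Thy1- cells and 22.3% in DETCs. In Thy1- cells it was mostly *Sox9* (1733 to 1823) and *Nfatc1* (666 to 1076). There *Lgr5*, *Lhx2*, *Tbx1* and *Tcf7l1* had 23.1 to 85.6, against 114 to 1113 in HFSCs. The summed DETC markers were 17453 to 36485 in DETCs and 95.7 to 402 in the other libraries. In DETCs the basal keratinocyte markers (*Krt5*, *Krt14*, *Itga6*, *Itgb4*, *Col17a1*) summed to 9972 to 46131, a mean of 36.8% of the HFSC mean.

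The surface genes were highest in HFSCs. *Cd34* (ENSMUSG00000016494.9, GRCm38 chromosome 1 from 194938819 to 194961279, plus strand) had 1930, 1600, 2622 and 2032 normalized counts in HFSC replicates 1 to 4. In the 16 other libraries it had 43.8 to 130. The lowest HFSC library was therefore far above the highest library of any other population. By mean ± SD, HFSCs had 2046 ± 426 (n = 4), DETCs 99.98 ± 33.0 (n = 5), Thy1hi YFP cells 96.1 ± 25.9 (n = 3), Thy1- cells 78.8 ± 26.6 (n = 4) and Thy1hi cells 57.8 ± 12.4 (n = 4), and outside HFSCs each population overlapped the next in that order. *Cd34* shares 148 bases of exon with an antisense gene, *Gm16897*, which had 0 to 4.34 normalized counts. In bulk samples, fewer cells of a type and less RNA per cell cannot be told apart, which holds for every level below.

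*Cd200* (ENSMUSG00000022661.14, chromosome 16 from 45382135 to 45409053, minus strand) had 316, 227, 334 and 522 normalized counts in HFSCs. In Thy1- cells it had 62.0, 108, 86.8 and 158, so all 4 lay below the lowest HFSC library. Of the 5 genes it kept the largest share of its HFSC mean outside HFSCs, 29.6% in Thy1- cells, where the other 4 had 2.14% to 9.19%. DETCs followed with 60.97 ± 29.5 (SD, n = 5), Thy1hi YFP cells with 41.7 ± 31.8 (n = 3) and Thy1hi cells with 25.2 ± 12.3 (n = 4), again with overlap between neighbours in the order.

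*Il31ra*, the interleukin-31 receptor subunit (ENSMUSG00000050377.8, chromosome 13 from 112519898 to 112594360, minus strand), had 2039.7, 1141, 2523 and 5301 normalized counts in HFSCs, the highest mean of the 5 genes (2751 ± 1793). Replicate 4 stood well above the other HFSC libraries, and all 4 were above every other library. Outside HFSCs it ranged from 29.8 to 179 (median 71.2, n = 16). DETCs, the resident T cells, had 130, 91.5, 179, 59.0 and 68.5, where the last 2 are libraries a and b, whose column numbers match no sample title. These values overlapped those of Thy1hi YFP (118, 95.2 and 40.6) and Thy1- cells (54.7, 44.0, 113 and 84.4). A pseudogene on the same strand, *Gm3226*, shares 45 bases of exon with *Il31ra* and was not analysed here.

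The secreted genes varied more between HFSC libraries, with a coefficient of variation of 70.4% for *Angptl7* and 84.1% for *Fgf18* against 20.8% to 65.2% for the surface genes. *Angptl7* (ENSMUSG00000028989.3, chromosome 4 from 148495183 to 148500460, minus strand) had 601, 288, 1901 and 1529 normalized counts in HFSCs, a 6.60-fold range. Its highest library elsewhere, DETC replicate 3, had 71.2, and Thy1hi cells had 5.52, 13.2, 12.2 and 20.4. It lies within *Mtor* on the opposite strand with no shared exon, and *Mtor* itself had 372 to 682 in the 20 libraries.

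*Fgf18* (ENSMUSG00000057967.12, chromosome 11 from 33117430 to 33147400, minus strand) had 755, 203, 485 and 46.2 normalized counts in HFSCs, a 16.3-fold range. Replicate 4 lay below 2 libraries outside HFSCs, Thy1- replicate 4 with 54.9 and DETC replicate 1 with 47.9. For the other 4 genes every HFSC library exceeded all 16 other libraries. HFSCs did not overlap Thy1hi cells or Thy1hi YFP cells at 5 of 5 genes, where 19.3% and 22.3% of all 17204 genes tested did not overlap in either direction, and did not overlap Thy1- cells or DETCs at 4 of 5, where 13.6% and 32.5% did not. The choice of the genes rests on these libraries, so nothing is read from those counts. Without HFSC replicate 4 its HFSC mean rose from 372 ± 313 (SD, n = 4) to 481 ± 276 (n = 3), and its lowest HFSC library (203) was above all others. Per kilobase of exon, the HFSC means were 501 for *Angptl7*, 485 for *Il31ra*, 314 for *Fgf18*, 281 for *Cd34* and 105 for *Cd200*, with SDs of 352, 316, 264, 58.5 and 37.3, so that the first 4 do not separate beyond their spread.

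**Figure D1:**
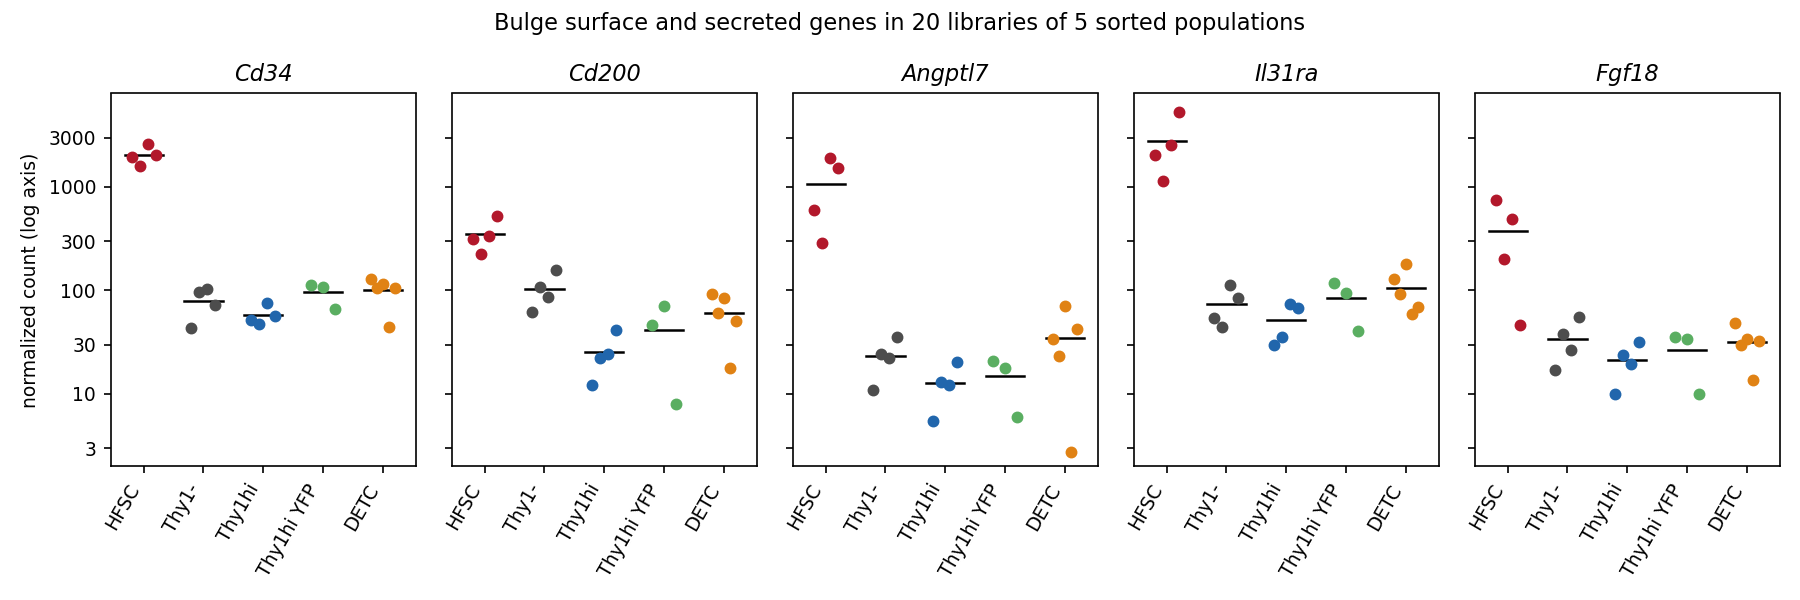
Normalized counts (log axis) of the 5 genes in each library of HFSCs, Thy1-, Thy1hi, Thy1hi YFP cells and DETCs; points are libraries and bars are means. HFSC points lie above all others for 4 genes, and for *Fgf18* 1 HFSC point (46.2) falls among the other populations.

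Within HFSCs the 5 genes did not rank the libraries alike. Replicate 4 was highest for *Cd200* (149% of its HFSC mean) and *Il31ra* (193%), second for *Angptl7* (142%) and lowest for *Fgf18* (12.4%). Replicate 2 was lowest for the other 4 genes, at 78.2% of the HFSC mean for *Cd34*, 64.9% for *Cd200*, 26.7% for *Angptl7* and 41.5% for *Il31ra*. Replicate 4 also stood apart in other values: *Krt6a*, a keratin of the inner bulge and companion layer, had 316 there against 1926 to 2216 in replicates 1 to 3, *Krt14* had 9872 against 26882 to 29855, and *Sox9* had 1235 against 3587 to 4861. *Nfatc1* (1277 against 1641 to 1821) and *Tcf7l1* (114 against 130 to 287) were also below the other replicates, while the bulge markers *Lgr5* (572 against 443 to 665), *Lhx2* (1001 against 757 to 1113), *Tbx1* (633 against 471 to 1011) and *Cd34* lay within their range. Langerhans cell markers summed to 388 in replicate 4 against 2462 to 3633 in replicates 1 to 3. The *Rn45s* share of replicate 4 was 13.1% against 38.3% to 41.5%. Their part in the *Fgf18* value was not tested. By Dixon's test no library stood apart within its population for any of the 5 genes (20 groups of 4 or 5 libraries). Groups this small give that test little power, so its outcome says little about HFSC replicate 4.

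**Figure D2:**
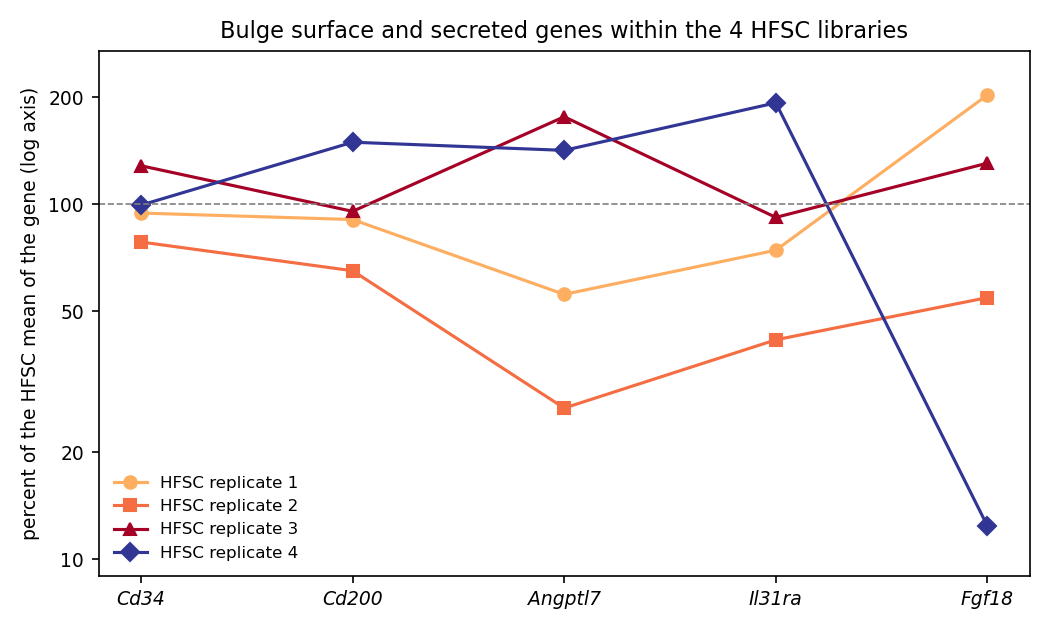
Each of the 4 HFSC libraries as percent of the HFSC mean of each gene (log axis), with the dashed line at 100%. Replicate 4 was at 193% for *Il31ra* and 12.4% for *Fgf18*, while *Cd34* stayed between 78.2% and 128%.

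Because HFSC values chose these genes, the tests of these 5 genes compare only the populations without HFSCs. The fit still held the HFSC libraries, so their spread, largest for *Angptl7* and *Fgf18*, entered the SEs and intervals of these tests. Differences were fitted with limma on log2(normalized count + 1) over the 17204 genes whose normalized count reached 10 in 3 or more libraries, two-sided, and called where the p adjusted by the Benjamini-Hochberg method over all genes was under 0.05. All 5 genes passed the filter, which their HFSC values alone would have met. The comparisons share libraries and so are not independent of each other.

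The clearest difference outside HFSCs was that of *Cd200* between Thy1- and Thy1hi cells. Thy1hi libraries had 12.1, 22.4, 24.4 and 41.7 normalized counts and Thy1- libraries had 62.0, 108, 86.8 and 158, so every Thy1hi library was below every Thy1- library at 1 of 5 genes, where 6.77% of all genes did not overlap in either direction. The log2 fold change was -2.04 (SE 0.56, 95% interval -3.20 to -0.88), with a limma adjusted p of 0.178 (unadjusted 0.00153) and an exact permutation p of 0.0286, the smallest that 4 against 4 libraries allow. Thy1hi and Thy1- libraries of the same replicate number deviated together from their population means across all genes, with r of 0.293 to 0.716 in the 4 pairs. The 12 combinations of different number had r of -0.651 to 0.514, so the 2 ranges overlap. In a limma fit of only these 2 populations with the replicate numbers as a block, the adjusted p of *Cd200* was 0.000783. That pairing was chosen from these same data, and a fit of the 2 populations without the block did not call *Cd200*. The Thy1- library was higher in *Cd200* by 5.11, 4.81, 3.56 and 3.79 times in pairs 1 to 4. Over all alternatives the adjusted p ranged from 0.000783 to 0.629.

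The other 4 genes were not called between Thy1hi and Thy1- cells in either fit. In Thy1hi cells, *Cd34* had 51.9, 47.4, 75.6 and 56.3 and in Thy1- cells 43.8, 96.0, 103 and 73.0, a log2 difference of -0.39 (95% interval -1.04 to 0.26). *Angptl7* differed by -0.82 (-2.34 to 0.69), *Il31ra* by -0.52 (-1.47 to 0.44) and *Fgf18* by -0.65 (-2.004 to 0.71). Their limma adjusted p were 0.978 for *Cd34* and 0.999 for the others, and with the block 0.376, 0.158, 0.175 and 0.202 in the same order. In 19 of 20 combinations of gene and pair the Thy1hi library was lower, the exception being *Cd34* in pair 1. All but *Cd34* were thus lower in all 4 pairs (4 of 5 genes), where 13.5% of all genes were. The 5 genes varied together between libraries outside HFSCs (r of 0.636 to 0.939 for deviations from population means). The 20 combinations are therefore not independent, and neither are the 5 genes. Langerhans cell markers were also lower, with sums of 1207 to 1545 in Thy1hi and 1836 to 2168 in Thy1- libraries. Differentiated keratinocyte markers summed to 7916 to 24412 and 24202 to 36803, where 1 Thy1hi library overlapped. Bulge markers, *Cd34* among them, summed to 1155 to 1815 and 2590 to 3147. Of these, *Sox9* (580 to 782 and 1733 to 1823) and *Tcf7l1* (11.04 to 24.25 and 24.45 to 42.56) did not overlap, and the others did. Their part in these differences was not tested. So 0 of 5 genes were called by limma without the block (1 of 5 at an unadjusted p under 0.05), where 0.337% of all genes were called. With the block 1 of 5 was called, where 6.61% were. EdgeR called 0 and DESeq2 called 1, *Cd200* (adjusted p 0.0102).

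**Figure D3:**
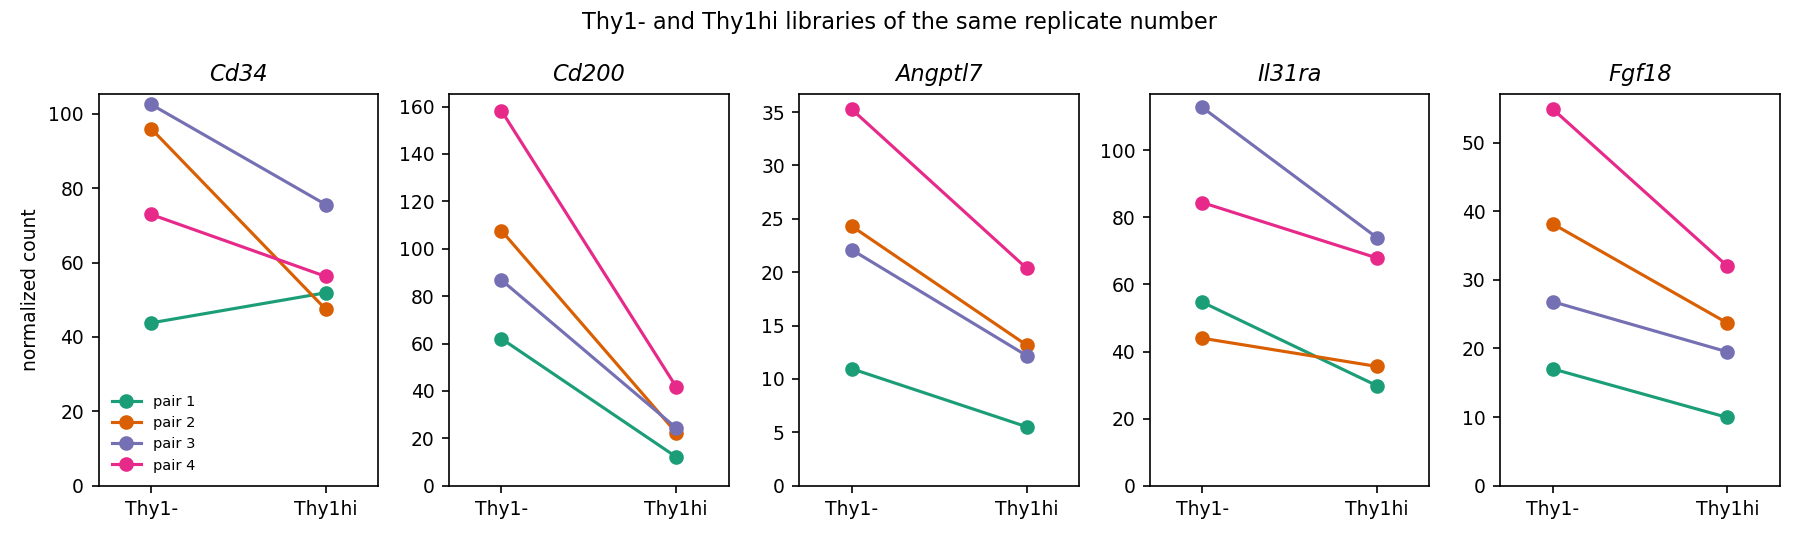
Normalized counts of the 5 genes in Thy1- and Thy1hi libraries, with lines joining libraries of the same replicate number (axes start at 0). Every line falls from Thy1- to Thy1hi except pair 1 of *Cd34*, and the *Cd200* groups do not overlap.

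None of the 5 genes was called in the YFP-sorted Thy1hi cells against either keratinocyte population. In the YFP libraries *Krt6a*, *Krt6b* and *Krt75*, listed here as inner bulge and companion layer markers, summed to 5613 to 8574. *Krt6a* made up most of it in every YFP library. The sum was 563 to 939 in Thy1hi, 388 to 1851 in Thy1- and 385 to 2434 in HFSC libraries. *Krt6a* (5089 to 7616) and *Krt6b* (314 to 934) stood above all of those libraries. *Krt75* (23.9, 80.5 and 38.6) did not, and overlapped Thy1hi cells (34.2 to 65.8). The part of these keratins in the values of the YFP libraries was not tested. *Cd34* had 114, 108 and 66.4 normalized counts, a log2 difference of 0.71 to Thy1hi cells (95% interval 0.01 to 1.41, limma adjusted p 0.547). *Cd200* had 45.9, 71.2 and 7.93, and its difference to Thy1- cells was -1.67 (95% interval -2.92 to -0.41, limma adjusted p 0.211). Both intervals exclude 0 before adjustment and neither difference was called. *Il31ra* differed by 0.67 from Thy1hi and 0.15 from Thy1- cells, *Angptl7* by 0.16 and -0.66, and *Fgf18* by 0.22 and -0.42, with intervals that include 0. Limma called 0 of 5 genes against Thy1hi cells (0.0116% of all genes called) and 0 of 5 against Thy1- cells (0.761%), with 1 of 5 at an unadjusted p under 0.05 in each, and edgeR and DESeq2 also called 0 in both. The third YFP library was the lowest of its group at all 5 genes, as at 37.6% of all genes. With 3 against 4 libraries an exact permutation test cannot go below 0.0571.

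DETCs had higher values than Thy1hi cells at all 5 genes, without a call. *Cd34* in DETCs had 130, 105, 115, 43.9 and 106 normalized counts, a log2 difference of 0.71 (95% interval 0.10 to 1.33, limma adjusted p 0.0655). *Cd200* had 92.0, 60, 84.6, 17.8 and 50.4, a difference of 1.18 (0.07 to 2.28, adjusted p 0.0907). *Il31ra* differed by 0.998 (0.09 to 1.90, adjusted p 0.0796). The secreted genes *Angptl7* (34.3, 23.4, 71.2, 2.74 and 42.0) and *Fgf18* (47.9, 29.5, 34.0, 13.7 and 32.4) differed by 0.98 (-0.45 to 2.42) and 0.55 (-0.74 to 1.84). Limma called 0 of 5 (3 of 5 at an unadjusted p under 0.05), where 36.6% of all genes were called. EdgeR called *Cd34* (adjusted p 0.0400), and DESeq2 called *Cd34* (0.0232), *Cd200* (0.0282) and *Angptl7* (0.0457).

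That count rested on single libraries. DETC library a was the lowest DETC library at all 5 genes, as at 31.3% of all genes, with 2.74 for *Angptl7* against 23.4 to 71.2 in the others. It was also lowest in *Krt14* (3319 against 11382 to 16495) and in summed basal keratinocyte markers (9972 against 33571 to 46131), and highest in *Cd3e*, a T cell receptor subunit (6287 against 3435 to 4800). The part of keratinocyte RNA in the DETC values was not tested. Without library a, 3 genes were called: *Cd34* (log2 difference 0.98, limma adjusted p 0.00400), *Cd200* (1.56, 0.0200) and *Angptl7* (1.67, 0.0242). Leaving out Thy1hi YFP replicate 3 gave a call for *Cd200* (adjusted p 0.0353), and leaving out Thy1hi replicate 3 (0.0481) or Thy1- replicate 1 (0.0462) gave one for *Cd34*.

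Against Thy1- cells the DETC differences went both ways. *Cd200* was lower in DETCs by mean, with a log2 difference of -0.87 (95% interval -1.97 to 0.24), and *Il31ra* (0.48), *Cd34* (0.32) and *Angptl7* (0.16) were higher. *Fgf18* differed by -0.09 (-1.38 to 1.19). Limma called 0 of 5, with 0 of 5 at an unadjusted p under 0.05, where 34.1% of all genes were called, and edgeR and DESeq2 called 0.

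**Figure D4:**
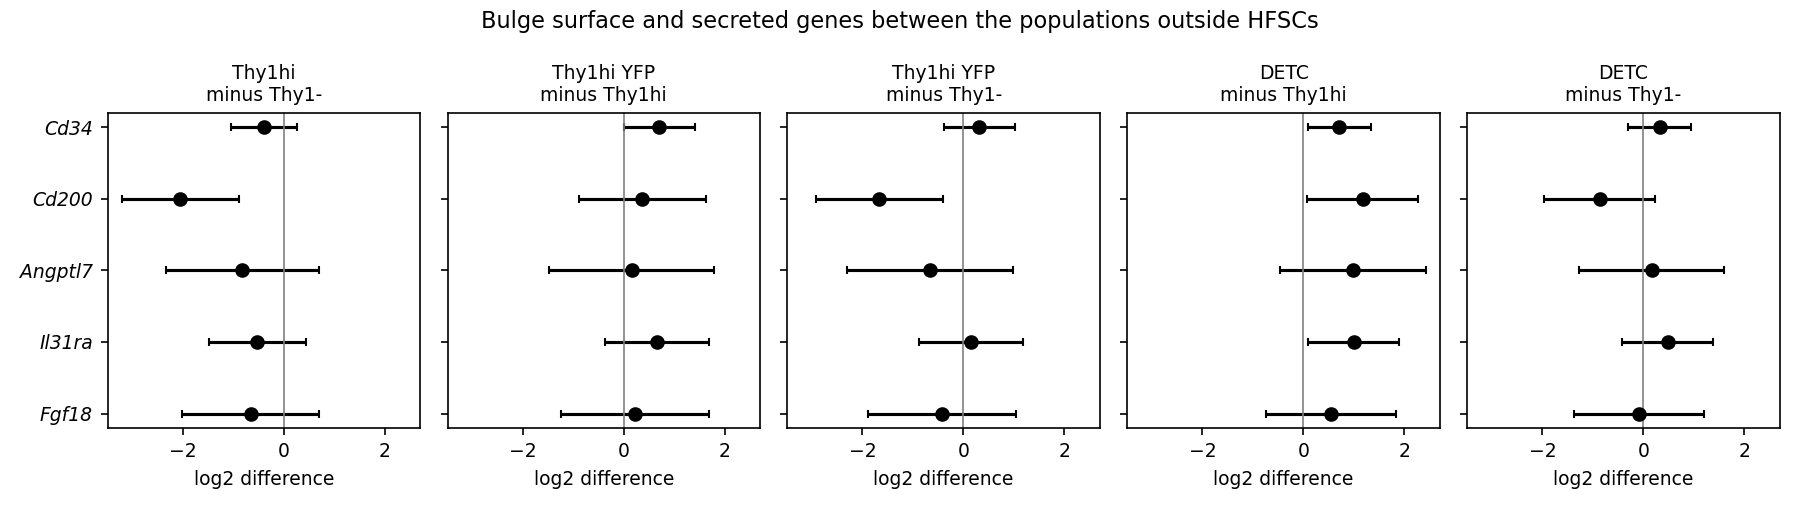
Log2 differences (limma, log2(normalized count + 1)) of the 5 genes in 5 comparisons of populations outside HFSCs, with 95% intervals and a line at 0. Intervals that exclude 0 before adjustment are those of *Cd200* in Thy1hi against Thy1-, *Cd200* and *Cd34* in the YFP comparisons, and *Cd34*, *Cd200* and *Il31ra* in DETCs against Thy1hi.

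The 5 genes varied together also where HFSCs were left out. Over the 20 libraries, pairs of genes had Pearson r of 0.796 to 0.969 on the log2 scale, and over the 16 libraries without HFSCs 0.569 to 0.880. Over those 16 libraries, deviations from the population means had r of 0.636 (*Il31ra* and *Fgf18*) to 0.939 (*Cd200* and *Fgf18*). With HFSCs included, the r of *Il31ra* and *Fgf18* was 0.0877, where HFSC replicate 4 was high in one and low in the other. Libraries share their depth and their cell mixture, so these values are a description with no p.

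The genes most like the mean profile of the 5 over 20 libraries were *Adamtsl4* (Pearson r 0.979), *Sema3e* (0.979), *Ctgf* (0.977), *Klhl29* (0.974) and *Grem1* (0.971). *Sema3e* encodes a secreted semaphorin, *Ctgf* a matricellular protein and *Grem1* a secreted antagonist of BMPs. *Grem1* had 1050.1 ± 189 normalized counts in HFSCs (SD, n = 4) and means of 20.4 to 56.2 in the other populations. The nearest single genes were *Tgm5* for *Cd34* (0.985), *Dpyd* for *Cd200* (0.962), *Sema3e* for *Angptl7* (0.980), *Wwp2* for *Il31ra* (0.971) and *Gpc6* for *Fgf18* (0.914). *Lgr5*, a receptor for R-spondins that marks bulge cells, was second for *Cd34* (0.983).

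Partners of the 5 proteins were then read from lists of 86 genes, of which 59 passed the filter. The ligand of IL31RA and a pair of receptors had few reads. *Il31* had 1 read in 1 Thy1hi YFP library and 0 in the other 19, *Cd200r1*, the receptor of CD200, at most 9 reads, and *Fgfr4*, a receptor for FGFs, at most 7. None of these 3 passed the filter, and differences in them were not detectable at this depth. *Osmr*, the partner subunit of IL31RA, had 549 ± 36.5 normalized counts in HFSCs (SD, n = 4), 825 ± 295 in Thy1hi cells and 959.8 ± 312 in Thy1- cells, and was not called in HFSCs against either (limma adjusted p 0.341 and 0.201). Without DETC library a the second difference (-0.75) was called, with an adjusted p of 0.0381. All 4 HFSC libraries were below those of Thy1hi and of Thy1- cells, where 19.3% and 13.6% of all genes did not overlap in either direction. *Il31ra* had the opposite order, but it was chosen as high in HFSCs.

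Among 13 tested genes of the interleukin-31 and gp130 family, 2 were higher and 4 lower in HFSCs than in Thy1hi cells, and 2 were higher and 2 lower than in Thy1- cells. Over all genes 6.86% were higher and 6.51% lower against Thy1hi cells, and 3.52% and 2.56% against Thy1- cells. With 1 library left out the counts against Thy1hi cells ran from 1 to 2 higher and 2 to 6 lower, with 2 lower without HFSC replicate 4 and 6 without HFSC replicate 1. Against Thy1- cells they ran from 1 to 2 higher and 1 to 5 lower, with 1 lower without HFSC replicate 1 or 4 or Thy1- replicate 1 or 3 and 5 without DETC library a. *Il11ra1*, a receptor for interleukin-11, had 661 ± 135 in HFSCs, 126.2 ± 25.1 in Thy1hi and 264 ± 71.0 in Thy1- cells. Its log2 differences were 2.38 and 1.34 (limma adjusted p 6.13e-06 and 0.00520), the second call being lost with the replicate block (0.0543). Replicate numbers did not pair HFSCs with keratinocytes, with same-number r of -0.232 to 0.162 for Thy1hi and -0.225 to 0.165 for Thy1- cells. The block fit, of only the 2 populations, is thus a weak check of the calls here and below. *Il6st*, the shared subunit gp130, was lower in HFSCs (909 ± 164) than in Thy1hi (1597, range 1496 to 1735) and Thy1- cells (1645 ± 343), with log2 differences of -0.83 and -0.85 (limma adjusted p 0.00146 and 0.00293), the second call being lost in a fit of only the 2 populations (0.0539) or with the replicate block (0.0635). *Jak2*, a kinase bound by these receptors, was lower than in Thy1hi cells (log2 difference -1.41, limma adjusted p 0.00635) and, less firmly, than in Thy1- cells (-1.28, 0.0235), where leaving out HFSC replicate 1 or 4 or Thy1- replicate 1 or 3 raised the adjusted p to between 0.0542 and 0.103. *Il6ra*, the interleukin-6 receptor, was lower than in Thy1hi cells (467 ± 139 against 960.0 ± 207, log2 difference -1.06, limma adjusted p 0.0231), a call that was lost without HFSC replicate 2 (0.0594), HFSC replicate 4 (0.0659) or Thy1hi replicate 4 (0.0606). *Stat5b*, a transcription factor of cytokine signalling, had 204 ± 24.4 against 116 ± 20.2 in Thy1hi cells (0.82, limma adjusted p 0.0144), lost without Thy1hi replicate 2 (0.0528). Its call as higher than in Thy1- cells (0.76, limma adjusted p 0.0397) was lost in 8 of the 20 fits with 1 library left out. *Jak1*, a kinase bound by these receptors, was lower than in Thy1hi cells (1859 ± 474 against 3093 ± 274, -0.77, limma adjusted p 0.0364), lost without HFSC replicate 4 (0.111) or Thy1hi replicate 1 (0.0940), 2 (0.0728) or 3 (0.0855).

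Of 5 tested FGF receptors 2 were higher in HFSCs than in Thy1hi cells and 1 than in Thy1- cells. Over all genes 6.86% and 3.52% were higher in these comparisons and 6.51% and 2.56% lower, which holds also for the FGF genes below. *Fgfr1* was higher in HFSCs (2201 ± 462 normalized counts, SD, n = 4) than in Thy1hi (394 ± 120) and Thy1- cells (761 ± 208), with log2 differences of 2.51 and 1.55 (limma adjusted p 1.94e-05 and 0.00528). *Fgfr2* (2308 ± 510) and *Fgfr3* (1006 ± 138), the receptors best known in epidermis, were not called against either. Without DETC library a both were called as lower than in Thy1hi cells (log2 differences -0.87 and -0.62, limma adjusted p 0.00163 and 0.0180), as they were in a fit of only the 2 populations (0.0241 and 0.0437), and DESeq2 also called *Fgfr2* (0.0232). *Fgfrl1*, a receptor without a kinase domain, had 32.6 ± 7.63 in HFSCs and 8.97 ± 4.05 in Thy1hi cells (1.86, limma adjusted p 0.00816). Of 4 tested FGF ligands only *Fgf1* was higher in HFSCs against both, with 284 ± 58.2 against 16.2 ± 8.62 and 34.0 ± 19.7 (log2 differences 4.24 and 3.39). *Fgf13* was lower against Thy1hi cells (-1.45), a call lost with the replicate block (limma adjusted p 0.0533), whose numbers do not pair these libraries. Of 8 genes that respond to FGF signals, *Spred1*, an inhibitor of Ras signalling, was higher against both (0.82 and 0.79, limma adjusted p 0.00627 and 0.0171), the latter lost without HFSC replicate 3 (0.0538), Thy1- replicate 2 (0.0561) or Thy1- replicate 3 (0.0676). Its relative *Spred2* was lower against Thy1hi cells (-0.64, limma adjusted p 0.0474), a call lost in 14 of the 20 fits with 1 library left out, and the other 6 were not called.

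In the angiopoietin group 6 of 11 genes were tested. *Angptl2*, a secreted relative of ANGPTL7, was higher in HFSCs (545 ± 87.1 normalized counts, SD, n = 4) than in Thy1hi (87.1 ± 21.8) and Thy1- cells (166 ± 72.0). The log2 differences were 2.65 and 1.79 (limma adjusted p 4.24e-06 and 0.000827). The second call was lost with the replicate block (0.0518), whose numbers do not pair these libraries. *Angpt1*, a ligand of the receptor TIE2, had 0 to 3 reads in HFSC libraries and 5 to 14 reads in Thy1hi and Thy1- libraries, so its calls as lower in HFSCs rest on few reads. Of 16 other surface and secreted genes of the bulge, 12 were higher in HFSCs than in Thy1hi cells and 11 than in Thy1- cells, and none was lower. Over all genes 6.86% and 3.52% were higher and 6.51% and 2.56% lower. The median log2 differences were 2.67 and 2.28 (-0.02 and -0.04 over all genes). That list was written with knowledge of bulge genes and of these data, so it is not independent evidence. *Ltbp2*, a matrix protein of the latent TGF-β binding family, had 1050.2 ± 158 in HFSCs and 30.3 ± 10.9 in Thy1hi cells, *Lgr5* 556 ± 91.3 and 24.5 ± 6.70, the WNT receptor *Fzd2* 403 ± 141 and 25.4 ± 4.39, and *Dkk3* 1060.05 ± 261 and 85.6 ± 34.98. Between Thy1hi and Thy1- cells 1 gene of this list was called, where 0.337% of all genes were. It was *Ltbp1*, named after its values were seen, with 99.9 ± 18.8 against 333 ± 59.4 (log2 difference -1.73, limma adjusted p 0.0199). Without Thy1hi replicate 1 or 2 or Thy1- replicate 2, 3 or 4 its adjusted p was 0.0530 to 0.0940.

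**Figure D5:**
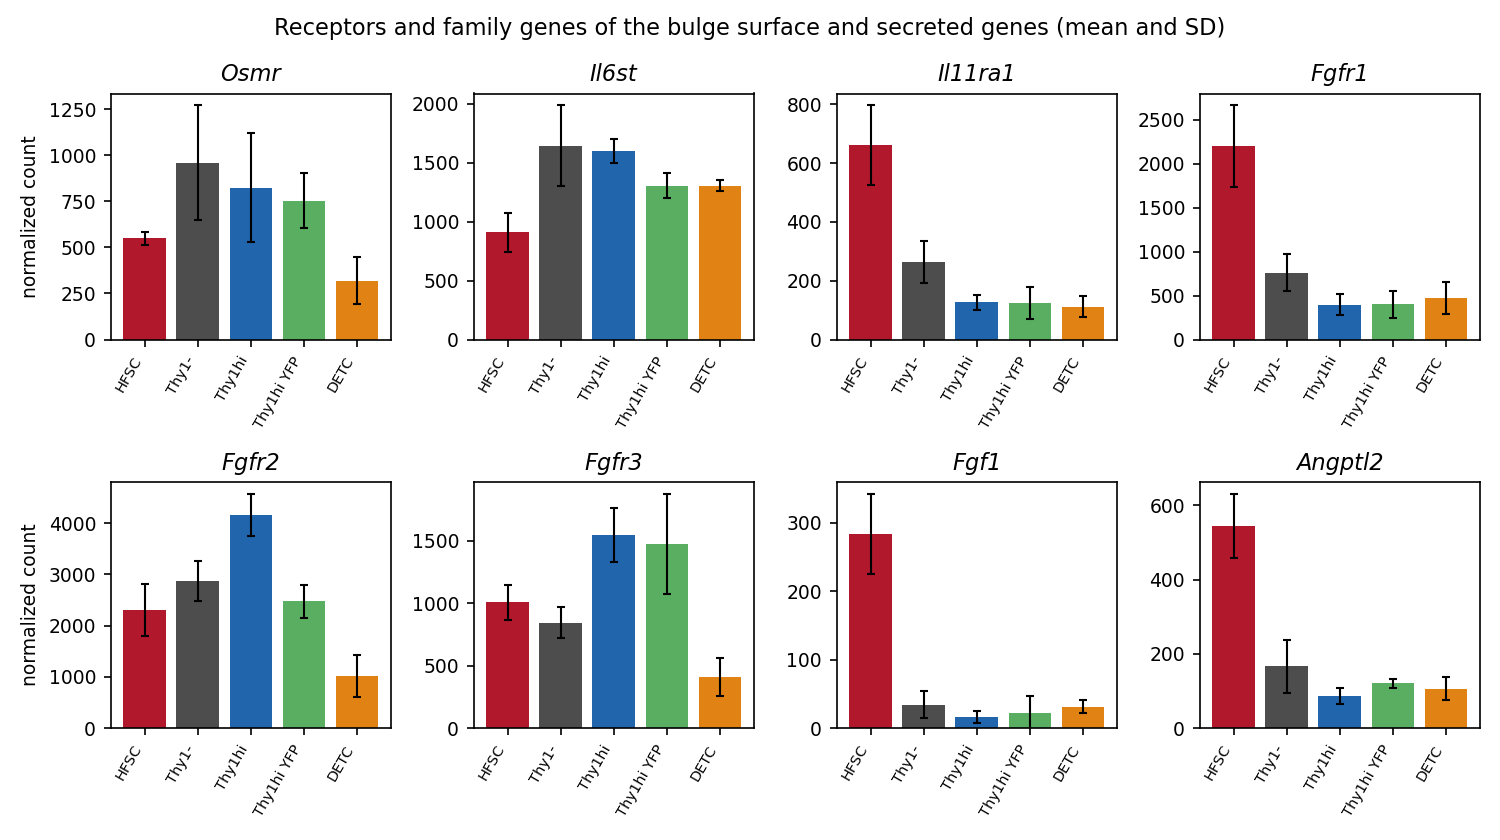
Mean normalized counts with SD of 8 receptor and family genes in HFSCs (n = 4), Thy1- (n = 4), Thy1hi (n = 4), Thy1hi YFP cells (n = 3) and DETCs (n = 5); axes start at 0. *Il11ra1*, *Fgfr1*, *Fgf1* and *Angptl2* were highest in HFSCs, whereas *Osmr*, *Il6st*, *Fgfr2* and *Fgfr3* were not.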

How the data were processed

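RNA of 5 sorted populations of mouse epidermis was sequenced, and which of the library kits named by the labels, for mRNA or for total RNA, made each library is not given in the sources used here. The deposited values are a signal in normalized counts: the authors used STAR with the mm10 genome, featureCounts with Ensembl genes, and 1 DESeq2 size factor per library, with no version of STAR or featureCounts given in the sources used here. Every value was a whole number of reads after multiplication by its size factor (100% of values, tolerance 0.005 plus a small share of the value). The size factors were recovered from the same values, and the check is weak for the highest values. In Thy1- replicate 4 the rows were put back to their genes, which raised its r with the averaged Thy1- replicates 1 to 3, over 1208 moved and expressed genes, from 0.0750 to 0.933.

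Gene positions came from the table and equal those of GENCODE M21 for 94.7% of genes. Differences were fitted with limma 3.58.1 (R 4.3.3) on log2(normalized count + 1), with 20 libraries in 1 fit, 1 mean per population and a trend in the variance. Adjusted p are by the Benjamini-Hochberg method over 17204 genes, with a threshold of 0.05, and exact permutation tests over libraries were two-sided. The fit was tested on simulated data. Alternatives were other pseudocounts, filters and scalings, edgeR 4.0.16 and DESeq2 1.42.0 on whole reads, fewer populations, the deposited row order, a replicate block and leaving out each library. Replicate numbers were taken to pair Thy1hi with Thy1- libraries, since all 4 same-number correlations of deviations were over 0.1. This pairing was chosen from these same data, and the block fit rests on it. The 3 same-number correlations of HFSCs with DETCs (0.170 to 0.333) were also over 0.1, so passing that value does not establish a pairing.

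Partner genes were named where they bind 1 of the 5 proteins or their receptors, plus up to 4 called genes per list by size of change whose libraries do not overlap; 1 partner is not reported here. The 5 genes and all lists were chosen with earlier results of these data known.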

Additional observations from a re-analysis of the deposited data

How the results depend on the processing

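Of 800 refits of the 5 genes in the 5 comparisons outside HFSCs, 766 kept direction and side of the threshold, 17 gained a call and 17 changed sign. For Thy1hi against Thy1- cells the fit with a replicate block called 1 of 5 genes and DESeq2 called 1. In that block fit same-numbered libraries are paired and the other populations are left out. For DETCs against Thy1hi cells the block called 4, although the numbers do not pair these libraries, edgeR called 1, DESeq2 called 3 and leaving out single libraries gave 0 to 3. For DETCs against Thy1- cells the block called 1. In both DETC comparisons the block fit kept only replicates 1 to 3 of each population. DETC libraries a and b and replicate 4 of the keratinocytes were thus left out. These fits therefore differ from the main fit in their libraries as well as in the block, and the cause of these changes was not tested. Sign changes concerned small differences. With 1 library left out, YFP against Thy1hi cells ranged from -0.23 to 1.28 for *Cd200*, -0.16 to 0.68 for *Angptl7* and -0.082 to 0.80 for *Fgf18* (log2). YFP against Thy1- cells ranged from -0.15 to 0.60 for *Il31ra* and -0.73 to 0.15 for *Fgf18*, and DETCs against Thy1- cells from -0.22 to 0.85 for *Angptl7* and -0.38 to 0.17 for *Fgf18*. The last was 0.47 with the block and 0.17 without replicate 4 of both Thy1hi and Thy1- cells, an alternative chosen after seeing the data. Of 46 calls of listed genes in HFSCs against Thy1hi or Thy1- cells, 29 held in every alternative run. These runs included the block, although replicate numbers do not pair HFSCs with these cells. Over all genes, calls between Thy1hi and Thy1- cells ranged from 9 to 1137 around 58, and between YFP and Thy1hi cells from 0 to 102 around 2. YFP against Thy1- cells gave 131 (10 to 552), HFSCs against Thy1hi cells 2300 (1369 to 3394), against Thy1- cells 1046 (329 to 2577) and against YFP cells 1991 (937 to 2748).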

Other observations

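*Osmr*, the partner of IL31RA, was lower in DETCs (319 ± 127 normalized counts, SD, n = 5) than in Thy1hi cells (825 ± 295, n = 4) and Thy1- cells (959.8 ± 312, n = 4). The log2 differences were -1.47 and -1.69, with limma adjusted p of 0.00148 and 0.000499, and no DETC library overlapped either population. Over all genes 36.6% and 34.1% were called in these comparisons, and 33.2% and 30.9% did not overlap in either direction, so such calls are common there. *Il6ra* was also lower in DETCs, with 345 ± 133 against 960.0 ± 207 and 841 ± 125.9 (log2 differences -1.58 and -1.40, limma adjusted p 0.000184 and 0.000733). *Stat5b* was higher in DETCs (329 ± 84.5) than in Thy1hi (116 ± 20.2) and Thy1- cells (122 ± 30.1), with log2 differences of 1.48 and 1.42 (limma adjusted p 7.97e-06 and 1.57e-05).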
